A study of Mus musculus with 6 samples.

Results

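Chemokines and their receptors were compared between UV2 and bEnd.3, a pair of mouse endothelial cell lines. The members were chosen by gene symbol: Ccl and Cxcl ligands with a number, Ccr and Cxcr receptors with a number, Ackr1 to Ackr4, and Cx3cl1, Cx3cr1, Xcl1, Xcr1 and Ccrl2. The rule took 62 of the 24411 genes in the deposited table, of which 39 are ligands, 18 are signalling receptors and 5 are atypical receptors.

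Bulk mRNA was sequenced from 3 UV2 libraries, labelled with the strain (BALB/c x C57BL/6)F1, and from 3 bEnd.3 libraries, labelled BALB/c. No agent or allele was given for either line, and both had the same history: growth past confluency on a 10-cm dish, washing, 3 days without serum, and detachment with trypsin-EDTA. The bEnd.3 line came from mouse brain endothelium transformed by polyomavirus middle T antigen, and the labels give no origin for UV2 beyond its strain. Each line stands for itself, line and strain cannot be told apart, and separate cultures are not named for the replicates. The p-values therefore weigh the difference between the lines only against the spread of these libraries within a line, which may be technical.

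Total expected counts were 21306441 to 26769149 per UV2 library and 21944529 to 28748128 per bEnd.3 library. Of 10 endothelial markers, 9 reached a mean of 1 CPM (the usual rate of counts scaled to library size) in UV2 and all 10 did in bEnd.3; the exception was the tight junction gene Cldn5, with a mean of 0.262 CPM in UV2. Of 12 leukocyte markers, Cd3e and Adgre1 had 0 counts in every library, the pan-leukocyte gene Ptprc had 0 counts in UV2 and 1 count in bEnd.3, and the list summed to 609.7 to 631.4 CPM in UV2 and 91.75 to 160.9 CPM in bEnd.3 through the myeloid genes Lyz2 and Cd68. Low leukocyte markers went in both directions. Csf1r, tested but not called, had 39 counts in UV2 and 36 in bEnd.3. Among those too low to be tested, Coro1a had 36 and 21, Itgam 19 and 3, and Tyrobp 1 and 0. Laptm5 had 2 and 16, and Fcer1g had 8 and 12. The 10 fibroblast and mural markers summed to 30.7 to 73.3 CPM in UV2 and 3.50 to 3.83 CPM in bEnd.3. Most of this came from Pdgfra, Pdgfrb and Col3a1, the 3 tested, which were higher in UV2. The other 7 were too low to be tested. Acta2 had 39 counts in UV2 and 0 in bEnd.3, Col1a1 had 9 and 16, Cspg4 had 1 and 7, and Dcn had 1 in each line. Col1a2, Lum and Rgs5 had at most 6 counts in UV2 and at most 1 in bEnd.3. The part of cells that carry leukocyte, fibroblast or mural markers in the chemokine values was not tested.

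Chemokines are small secreted proteins that attract leukocytes along a gradient by binding receptors coupled to inhibitory G proteins. They are sorted by the spacing of their first cysteines into CC, CXC, XC and CX3C classes. Endothelial cells release or display them on surface heparan sulfate, where they arrest leukocytes rolling on the vessel wall, and atypical receptors bind chemokines without G protein signalling and clear or carry them.

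The class of a ligand can be read in its coding sequence, and 36 bases around the first cysteine pair are printed for 1 tested member of each kind (GENCODE M21 coding sequence on GRCm38, 5′ to 3′ on the strand of the gene, with the cysteine codons in capitals). Ccl25 on chr8:4353885-4353920, plus strand, is a CC ligand with 0 codons between the cysteines, and Cxcl1 on chr5:90891484-90891519, plus strand, is a CXC ligand with 1 codon between them. In Cxcl1 the codons gagctgcgc for Glu-Leu-Arg, a motif of ligands that attract neutrophils, stand just before the first cysteine. Cxcl10 on chr5:92348166-92348201, minus strand, and Cxcl12 on chr6:117171496-117171531, plus strand, have the CXC spacing without those codons. Cx3cl1 on chr8:94778039-94778074, plus strand, has 3 codons between the cysteines.
Ccl25: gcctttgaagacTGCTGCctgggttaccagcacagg
Cxcl1: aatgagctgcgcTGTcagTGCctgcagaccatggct
Cxcl10: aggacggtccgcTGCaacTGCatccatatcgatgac
Cxcl12: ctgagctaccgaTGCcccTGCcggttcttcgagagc
Cx3cl1: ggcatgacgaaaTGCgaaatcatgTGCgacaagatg

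Most of the family was undetected or nearly so in both lines. Counts were 0 in all 6 libraries for 19 members. These were the 14 ligands Ccl3, Ccl11, Ccl19, Ccl20, Ccl21b, Ccl21c, Ccl22, Ccl24, Ccl26, Cxcl13, Cxcl14, Cxcl15, Cxcl17 and Xcl1, and the 5 receptors Ccr1, Ccr2, Ccr3, Ccr8 and Cxcr1. A count of 0 over a line allows a mean of up to 0.0427 CPM in UV2 and 0.0393 CPM in bEnd.3 (3 counts over the 3 libraries, for counting error only). A further 25 members had some counts but too few to be tested, with at most 45 counts over the UV2 libraries and at most 39 over the bEnd.3 libraries. In the line where each was higher, 4 members averaged at least 100 CPM, 4 averaged 10 to 100 CPM, 8 averaged 1 to 10 CPM and 27 were above 0 but under 1 CPM.

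The remaining 18 members passed the filter on low counts, and the test called 13 of them higher in UV2 and 2 lower, leaving 3 that it did not call. It was the quasi-likelihood test of edgeR, with p-values adjusted by Benjamini-Hochberg across the tested genes and a threshold of 0.05. By the same rule, 67.1% of all 12720 tested genes were called, 33.9% higher in UV2 and 33.3% lower. Among members the share higher was thus above that of all tested genes and the share lower was below it, whereas the share called in either direction, 15 of 18, was nearer to the background. The 3 libraries of UV2 lay wholly above those of bEnd.3 at 13 members and wholly below at 3, and 73.2% of all tested genes had libraries that did not overlap, 36.5% above and 36.8% below. The median log2 fold change of UV2 over bEnd.3 was 2.17 over the 18 tested members and -0.01 over all tested genes. With Cxcl5 and Cxcr4, each at 0 counts in a line, set to their bounds, it is 2.17 by construction, since neither crosses the middle ranks. These 18 do not stand for all 62 members, because Cxcl5, Cxcl9 and Cxcl11 passed the filter only through UV2 and Cxcr4 only through bEnd.3, where they were high. All 12 tested ligands were higher in UV2, with a median log2 fold change of 2.66, and none of the 4 tested signalling receptors was.

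**Figure D1:**
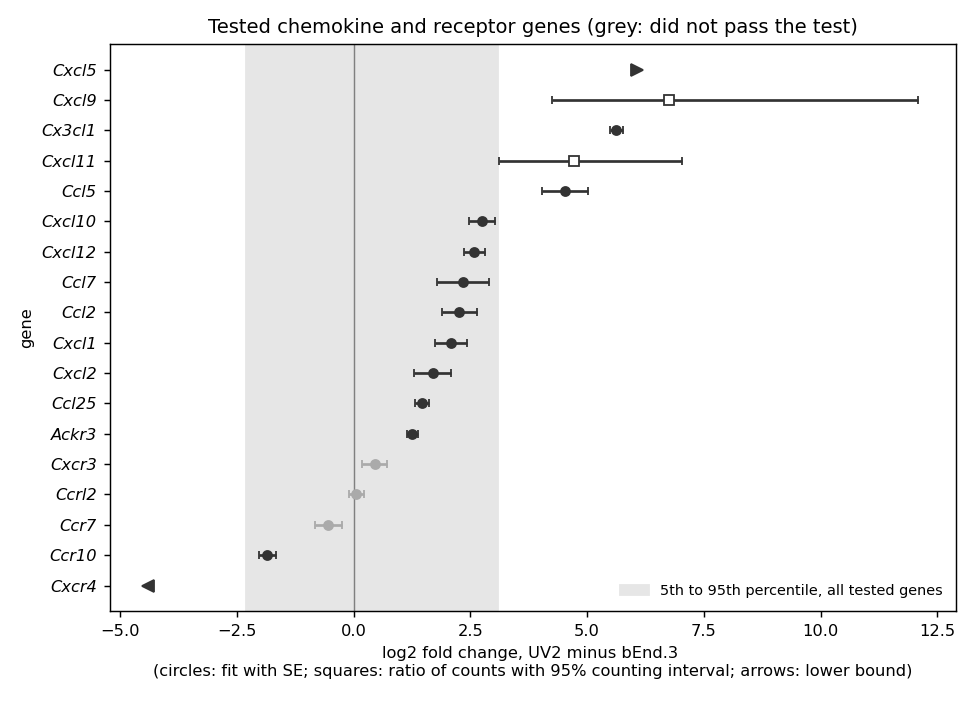
Log2 fold change of UV2 over bEnd.3 for the tested members, with bars for 1 SE; squares are count ratios with their 95% counting intervals where a line had 1 to 3 counts, and arrows are bounds where a line had 0 counts. All 12 ligands lie to the higher side, while Ccr10 and Cxcr4 lie to the lower side and Ccrl2 lies near 0.

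Monocyte-attracting CC ligands were carried by Ccl2, the main ligand of Ccr2 on inflammatory monocytes (gene at chr11:82035571-82037453, plus strand, GRCm38). Ccl2 had 518, 397 and 439 CPM in UV2 replicates 1, 2 and 3, against 156, 76.5 and 51.0 CPM in the bEnd.3 replicates. Every UV2 library lay above every bEnd.3 library, and bEnd.3 replicate 1 was the highest of its line. The means were 452 ± 61.6 CPM in UV2 and 94.4 ± 54.6 CPM in bEnd.3 (SD, n = 3 each). The log2 fold change was 2.26 (SE 0.37, edgeR adjusted p = 0.00098), with a range of 1.96 to 2.83 over the fits that left out a library. In bulk RNA, fewer cells that express a gene and less RNA per cell cannot be told apart, and this holds for every value here.

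Ccl7, which shares receptors with Ccl2 and lies next to it on chromosome 11, had a far lower level per kilobase of exon, 5.41 ± 3.08 in UV2 and 1.09 in bEnd.3 as CPM per kilobase. In CPM it had 7.10, 3.54 and 2.35 CPM in UV2, against 1.52, 0.692 and 0.407 CPM in bEnd.3. The lines did not overlap, and replicate 1 was the highest library within each line. The log2 fold change was 2.34 (SE 0.55, edgeR adjusted p = 0.00619), with a range of 1.79 without UV2 replicate 1 to 2.99 without bEnd.3 replicate 1. Ccl12, another ligand of Ccr2, had 16 counts over the UV2 libraries and 4 over the bEnd.3 libraries, and Ccl8 had 4 in UV2 and 0 in bEnd.3; neither was tested.

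Among the inflammatory CC ligands outside the group around Ccl2, only Ccl5, which attracts T cells and monocytes, was tested, of 8 members of that group. Ccl5 had 13.0, 19.6 and 7.87 CPM in UV2, against 0.897, 0.204 and 0.645 CPM in bEnd.3. Even the lowest UV2 library was far above the highest of bEnd.3. Its log2 fold change was 4.53 (SE 0.49, edgeR adjusted p = 0.000109). Ccl4, an attractant of monocytes and T cells encoded near Ccl5, had 44 counts in UV2 and 0 in bEnd.3, at least 16.2-fold higher against a floor of 3 counts over the line, and was too low to be tested. Ccl9 had 15 counts in UV2 and 2 in bEnd.3, a ratio of 8.15 (95% counting interval 1.90 to 73.4). Ccl6 had 0 counts in UV2 and 1 in bEnd.3.

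Of the 12 CC ligands known from lymphoid and epithelial tissue, Ccl25 was the tested one. It attracts thymocytes and gut-homing T cells through Ccr9. Ccl25 had 5.87, 4.90 and 5.44 CPM in UV2, against 1.88, 2.08 and 1.93 CPM in bEnd.3. The lines were well apart and the spread within each was small. On the log2 scale the fold change was 1.46 (SE 0.16, edgeR adjusted p = 0.000107). Its exons share 2.7% of their bases with Elavl1 on the opposite strand, which had 99.3 CPM in UV2 and 77.6 CPM in bEnd.3, and the strand setting of the counting is not given. Ccl27a had 22 counts in UV2 and 13 in bEnd.3, Ccl28 had 10 in UV2 and 3 in bEnd.3, and Ccl17 had 7 in UV2 and 1 in bEnd.3. None of these 3 was tested, nor was Ccl27b or Ccl1, each with at most 1 count in either line. Ccl21a, which guides T cells and dendritic cells into lymph nodes, had 1 count in UV2 and 29 in bEnd.3, and 24 of those 29 counts came from bEnd.3 replicate 2.

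**Figure D2:**
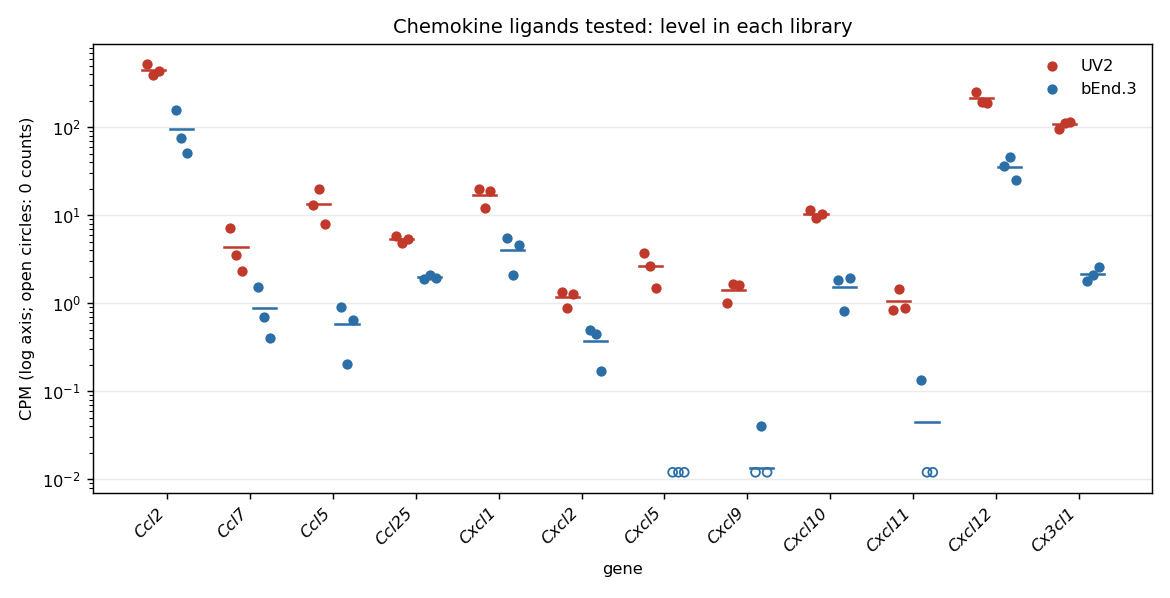
Ligand levels in CPM on a log axis, with 1 point per library, UV2 left of bEnd.3, and bars for the means; libraries at 0 stand at the foot of the axis. The UV2 points lie above the bEnd.3 points at each of the 12 tested ligands, and Cx3cl1 and Cxcl5 show wide gaps.

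The CXC ligands with the Glu-Leu-Arg motif, which recruit neutrophils through Cxcr2, were low but higher in UV2 at each of the 3 tested members. Of these, Cxcl5 passed the filter only through UV2, so it had to differ. Cxcl1, known as KC in mice, had 19.9, 12.1 and 19.1 CPM in UV2, against 5.52, 2.08 and 4.55 CPM in bEnd.3. Replicate 2 was the lowest library in both lines, and the lines did not overlap. For Cxcl1 the log2 fold change was 2.08 (SE 0.34, edgeR adjusted p = 0.000963).

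Cxcl2, known as MIP-2, is a further ligand of Cxcr2. It had 1.35, 0.873 and 1.27 CPM in UV2, against 0.493, 0.448 and 0.170 CPM in bEnd.3. The lines again did not overlap. Its log2 fold change was 1.69 (SE 0.40, edgeR adjusted p = 0.00618). Cxcl2 and its near copy Cxcl3 had counts that were not whole in UV2, 18.18 and 11.82 in replicate 2 and 32.53 and 9.47 in replicate 3. The pair added up to 30.00 and 42.00 counts, so that the split between these genes is uncertain. Cxcl3 itself had 45 counts in UV2 and 0 in bEnd.3, at least 16.5-fold higher, and was not tested.

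Cxcl5, a neutrophil ligand known from epithelium, was detected in UV2 only. It had 3.76, 2.67 and 1.504 CPM in UV2 and 0 counts in each bEnd.3 library. All UV2 libraries lay above bEnd.3, and Cxcl5 was at least 67.2-fold higher in UV2 against the floor (edgeR adjusted p = 0.000382). Summed over the 5 ligands of this group, the level was 21.5 ± 4.93 CPM in UV2 and 4.42 ± 1.76 CPM in bEnd.3.

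The promoters of Cxcl1, Cxcl2 and Cxcl3, of the same cluster on chromosome 5, share a stretch that reads the same in each. They are printed because these genes were higher, or seen, in the same line. The sequences are the 120 bases before the RefSeq start in GRCm38.p6, all on the plus strand, from chr5:90891125-90891244 for Cxcl1, chr5:90903779-90903898 for Cxcl2 and chr5:90785981-90786100 for Cxcl3. Capitals mark overlapping matches, on both strands, to the consensus for NF-kappaB, a transcription factor family activated by inflammatory stimuli, and in Cxcl3 also the letters TATAAA of the TATA box, which begin 30 bases before the start.
Cxcl1: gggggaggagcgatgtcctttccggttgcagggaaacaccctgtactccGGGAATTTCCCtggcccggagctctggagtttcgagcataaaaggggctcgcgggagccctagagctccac
Cxcl2: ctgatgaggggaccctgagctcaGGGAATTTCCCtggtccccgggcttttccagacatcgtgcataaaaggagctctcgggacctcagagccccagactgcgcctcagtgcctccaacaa
Cxcl3: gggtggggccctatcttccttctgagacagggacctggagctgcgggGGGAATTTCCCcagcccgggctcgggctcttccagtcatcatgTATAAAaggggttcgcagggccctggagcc

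In each of the 3 promoters the same 11-base stretch, GGGAATTTCCC, began 71 bases before the start in Cxcl1, 97 in Cxcl2 and 73 in Cxcl3. A match is a description of the letters and not a site shown to be bound. Promoter sequences were matched for 46 of 62 members, and 12 of these 46 (26.1%) held the kappaB consensus on either strand in the 250 bases before the start, against 8.23% of 27025 genes in the RefSeq table. The share was 3 of 8 among the matched members that were higher in UV2 (Cxcl1, Cxcl2 and Cxcl10) and 3 of 14 among those with 0 counts everywhere (Ccl20, Ccr1 and Ccr3). Cxcl15, in the cluster with Cxcl1, Cxcl2 and Cxcl3, had a matched promoter but no kappaB consensus in it. Members with no matched entry included Ccl2, Ccl4, Ccl5, Ccl7, Ccl11, Ccl21c, Ccl24, Ccl26, Ccr7, Ccr10, Cxcl5, Cxcl11, Cxcl16, Cxcl17 and Cxcr5. The letters TATAAA, on either strand and at any distance within the 250 bases, were found in 30.4% of the matched members and in 14.3% of all genes; some of these matches, such as that of Ccl9 at 224 bases before the start, do not lie where a TATA box acts.

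The CXC ligands of Cxcr3 are induced by interferons and attract activated T cells and natural killer cells, and all 3 were higher in UV2. Cxcl9 and Cxcl11 passed the filter only through UV2 and so had to differ, which leaves only the direction of Cxcl10 open. Cxcl10 had 11.4, 9.31 and 10.3 CPM in UV2, against 1.84, 0.814 and 1.93 CPM in bEnd.3. The UV2 libraries were close to each other and well above bEnd.3. Cxcl10 had a log2 fold change of 2.75 (SE 0.28, edgeR adjusted p = 7.98e-05).

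Cxcl9, known as MIG, had 1.01, 1.65 and 1.62 CPM in UV2, against 0, 0.0407 and 0 CPM in bEnd.3. Every UV2 library lay above every bEnd.3 library. This was 100 counts in UV2 against 1 count in bEnd.3, a ratio of 109 (95% counting interval 19.1 to 4335; edgeR adjusted p = 7.97e-05). Cxcl9 was thus near its detection limit in bEnd.3, and the fitted log2 fold change, 8.13 without bEnd.3 replicate 2, which held that count, sets no size.

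Cxcl11, known as I-TAC, had 0.845, 1.45 and 0.887 CPM in UV2, against 0.135, 0 and 0 CPM in bEnd.3. The lines did not overlap, and all bEnd.3 counts came from replicate 1. The 73 counts in UV2 and 3 in bEnd.3 gave a ratio of 26.4 (95% counting interval 8.70 to 131; edgeR adjusted p = 0.00101). GENCODE M21 gives Cxcl11 the biotype of a polymorphic pseudogene, so its transcripts need not encode a working ligand in every strain. The fitted log2 fold change of Cxcl11 was 7.71 without bEnd.3 replicate 1 and 3.92 without bEnd.3 replicate 3. In GENCODE M21, 41.7% of its exon bases overlap the pseudogene Gm2673 on the opposite strand, a gene not analysed here. Summed over the 3 ligands, the level was 12.8 ± 0.405 CPM in UV2 and 1.59 ± 0.635 CPM in bEnd.3.

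The Cxcl10 promoter is printed because it was the member higher in UV2 that held both the kappaB consensus and the core of the interferon-stimulated response element (ISRE), which reads GAAA, any 2 bases and GAAA again and was searched on both strands. The 250 bases before the RefSeq start are from chr5:92348890-92349139 (GRCm38.p6, minus strand, 5′ to 3′). Capitals mark the ISRE core, which begins 213 bases before the start, and the kappaB matches, which begin 159 bases before it and, overlapping each other, 104 and 103 bases before it. No ISRE match overlaps a kappaB match there.
Cxcl10: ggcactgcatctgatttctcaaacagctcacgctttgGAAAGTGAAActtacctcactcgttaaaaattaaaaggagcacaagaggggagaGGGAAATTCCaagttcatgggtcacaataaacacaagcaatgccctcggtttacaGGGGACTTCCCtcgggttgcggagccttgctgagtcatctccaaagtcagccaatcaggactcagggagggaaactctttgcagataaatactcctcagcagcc

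The ISRE core was found in 3 of the 46 matched members (Cxcl10, Ccl19 and Cxcl14), or 6.52%, against 3.46% of all genes in the table. Ccl19 and Cxcl14 had 0 counts in every library, so the same core stood before undetected genes and before Cxcl10.

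Cxcl12, the homeostatic ligand that retains progenitors in the marrow and guides vessel growth through Cxcr4, was among the most abundant members (chr6:117168535-117181367, plus strand). It had 255, 195 and 191 CPM in UV2, against 36.0, 46.4 and 25.1 CPM in bEnd.3. UV2 libraries lay above all bEnd.3 libraries by a wide gap. The means were 214 ± 35.5 CPM in UV2 and 35.8 ± 10.7 CPM in bEnd.3, with a log2 fold change of 2.58 (SE 0.22, edgeR adjusted p = 3.65e-05).

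Cx3cl1, or fractalkine, is a ligand anchored in the endothelial membrane on a mucin stalk and captures patrolling monocytes that carry Cx3cr1 (chr8:94772009-94782427, plus strand). Cx3cl1 had 96.5, 111 and 116 CPM in UV2, against 1.79, 2.12 and 2.58 CPM in bEnd.3. The lines were far apart and the spread within each was small. The log2 fold change was 5.62 (SE 0.14, edgeR adjusted p = 9.84e-08), and 284 of all tested genes had a higher log2 fold change. Its neighbours Ccl22 and Ccl17 did not share the level: Ccl22 had 0 counts in every library, and Ccl17 had 7 counts in UV2 and 1 in bEnd.3. The other anchored chemokine, Cxcl16, had 24 counts in UV2 and 20 in bEnd.3, and was not tested.

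Levels of different ligands were compared as CPM per kilobase of exon, with the exons of all GENCODE transcripts of a gene merged. That length was 1138 bases for Ccl2, 3930 for Cx3cl1 and 8176 for Cxcl12. It can exceed the length of the transcript present, so the order and the shares are approximate. Ccl2 led in both lines, with 396.8 ± 54.1 CPM per kilobase in UV2, or 81.1% of the summed ligand level, and 83.0 ± 48.0 CPM per kilobase in bEnd.3, or 88.6%. Next in UV2 came Cx3cl1 at 27.5 ± 2.57 and Cxcl12 at 26.1 ± 4.34 CPM per kilobase, whose libraries overlapped, and then Ccl5 at 14.1 ± 6.14 and Cxcl1 at 9.09 ± 2.28 CPM per kilobase, which overlapped as well. In bEnd.3 the second place fell to Cxcl12 at 4.38 ± 1.30 CPM per kilobase, followed by Cxcl1 at 2.16 ± 0.946 and Ccl7 at 1.09 CPM per kilobase. By its mean, Cx3cl1 was 2nd in UV2 and 7th in bEnd.3, where it averaged 0.551 CPM per kilobase.

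Summed over all 39 ligands, the level was 937, 763 and 798 CPM in UV2, against 206, 133 and 89.2 CPM in bEnd.3, a ratio of the means of 5.84. Ccl2 alone held 55.3%, 52.1% and 55.0% of that sum in UV2, against 75.5%, 57.6% and 57.2% in bEnd.3. The ratio therefore rests largely on that gene. As a share of that sum, Cx3cl1 took 10.3%, 14.6% and 14.5% in the UV2 libraries, against 0.87%, 1.59% and 2.89% in the bEnd.3 libraries. Cxcl12 took 27.2%, 25.6% and 23.9% in UV2, against 17.5%, 34.9% and 28.1% in bEnd.3, so its share overlapped between the lines although its level did not.

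Signalling receptors were low in both lines, and none of the 4 tested was called higher in UV2. Ccr10, the receptor of Ccl27 and Ccl28 on skin- and mucosa-homing lymphocytes, had the highest level per kilobase of exon among them, 2.10 CPM per kilobase in UV2 and 7.57 CPM per kilobase in bEnd.3 (chr11:101172997-101175443, minus strand). Ccr10 had 3.84, 3.20 and 3.82 CPM in UV2, against 10.8, 12.2 and 16.2 CPM in bEnd.3. Each UV2 library lay below each bEnd.3 library. For Ccr10 the log2 fold change was -1.85 (SE 0.18, edgeR adjusted p = 7.33e-05).

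Cxcr4, the signalling receptor of Cxcl12 and a gene of endothelial tip cells (chr1:128588199-128592293, minus strand), was seen in bEnd.3 only. It had 0 counts in each UV2 library, against 1.08, 0.896 and 0.747 CPM in bEnd.3, or 68 counts in all. Cxcr4 was at least 21.2-fold lower in UV2 against the floor (edgeR adjusted p = 0.000335). The line with more Cxcl12 was thus the line in which its signalling receptor was not detected, at this depth.

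Cxcr3 and Ccr7 did not pass the test. Cxcr3, the receptor of Cxcl9, Cxcl10 and Cxcl11, had 1.56, 2.38 and 2.93 CPM in UV2, against 1.84, 1.55 and 1.66 CPM in bEnd.3. The lines overlapped, with a log2 fold change of 0.45 (SE 0.26, edgeR adjusted p = 0.163), and without UV2 replicate 1 it was 0.67 with an adjusted p of 0.0354. Ccr7, which takes dendritic cells and T cells to lymph nodes, had 0.549, 0.436 and 0.501 CPM in UV2, against 0.718, 0.570 and 0.883 CPM in bEnd.3. Its libraries did not overlap, with UV2 below, but the log2 fold change of -0.55 (SE 0.29) had an edgeR adjusted p of 0.135.

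**Figure D3:**
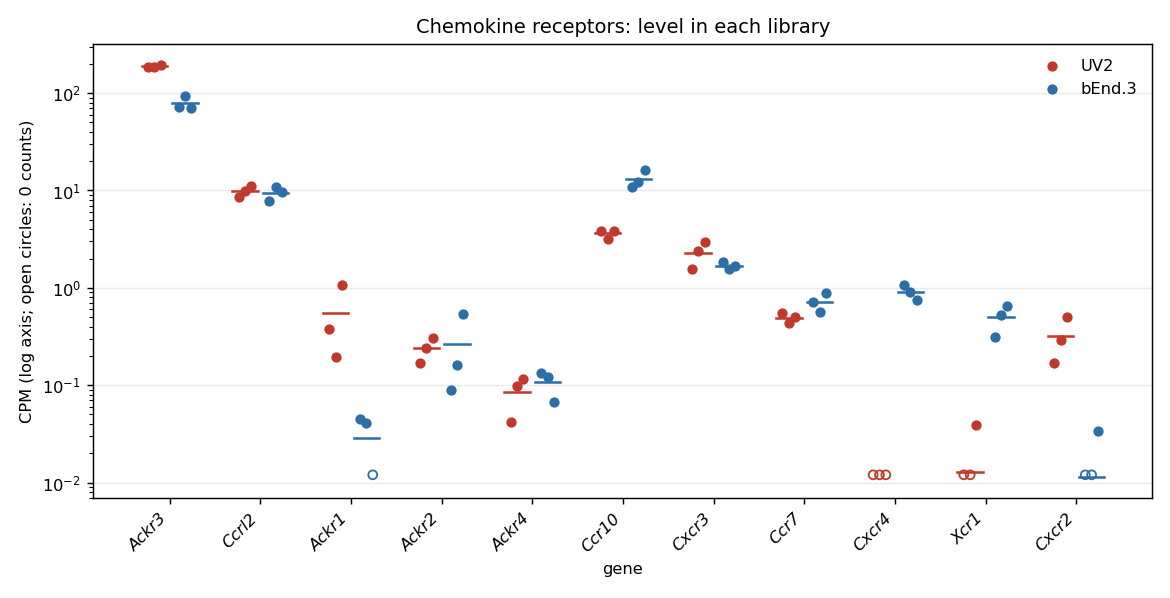
Receptor levels in CPM on a log axis, with 1 point per library, UV2 left of bEnd.3, and bars for the means; libraries at 0 stand at the foot of the axis. Ackr3 stands far above the rest in both lines, Ccr10 and Cxcr4 lie lower in UV2, and the lines overlap at Ccrl2 and Cxcr3.

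The signalling receptors that could not be tested differed in which line held more counts. Xcr1, the receptor of cross-presenting dendritic cells, had 0, 0 and 1 counts in UV2, against 7, 13 and 19 counts in bEnd.3, a ratio of bEnd.3 over UV2 of 35.9 (95% counting interval 6.07 to 1453). Cxcr2, the receptor of the neutrophil ligands, had 23 counts in UV2 and 1 in bEnd.3 (UV2 over bEnd.3 24.99, interval 4.06 to 1030). These ratios rest on few reads, and neither receptor averaged 1 CPM in either line. Cxcr5 had 15 counts in UV2 and 8 in bEnd.3, Cxcr6 had 13 in UV2 and 8 in bEnd.3, and Ccr4, Ccr6, Ccr9 and Cx3cr1 had at most 2 counts in either line. The 18 signalling receptors together summed to 7.46 ± 0.907 CPM in UV2 and 17.2 ± 2.83 CPM in bEnd.3, a ratio of 0.434. Ccr10 alone held 3.62 ± 0.365 CPM of this sum in UV2 and 13.07 ± 2.82 CPM in bEnd.3, so the ratio rests mainly on that gene.

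The atypical receptors were led by Ackr3, formerly Cxcr7, which takes up Cxcl12 and Cxcl11 (chr1:90203980-90216751, plus strand). Ackr3 had 184, 184 and 196 CPM in UV2, against 71.8, 93.4 and 71.0 CPM in bEnd.3. UV2 libraries lay above bEnd.3 with little spread. Ackr3 had a log2 fold change of 1.26 (SE 0.11, edgeR adjusted p = 4.4e-05). Per kilobase of exon, Ackr3 made up 87.2% of the summed receptor level in UV2, at 56.1 ± 2.15 CPM per kilobase, and 63.7% in bEnd.3, at 23.5 ± 3.81 CPM per kilobase.

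Ccrl2, which binds chemerin and presents it to other cells, did not pass the test. It had 8.58, 9.84 and 11.03 CPM in UV2, against 7.76, 10.8 and 9.74 CPM in bEnd.3. The lines overlapped, and the log2 fold change of 0.06 (SE 0.16, edgeR adjusted p = 0.768) turned sign under total-count scaling, without UV2 replicate 3 and without bEnd.3 replicate 1. Ackr1, the Duffy antigen receptor of venular endothelium, had 9, 4 and 28 counts in UV2, against 1, 1 and 0 counts in bEnd.3, a ratio of 22.3 (95% counting interval 5.79 to 190) with no test. In GENCODE M21, 25.7% of the exon bases of Ackr1 overlap Cadm3 on the same strand, which had 17 counts in UV2 and 0 in bEnd.3, so reads of these genes may be confused. Ackr2, a scavenger of CC ligands in lymphatic endothelium, had 17 counts in UV2 and 22 in bEnd.3, and Ackr4 had 6 in UV2 and 8 in bEnd.3. The 4 markers of lymphatic endothelium summed to 1709 to 1831 CPM in UV2 and 225.2 to 296.8 CPM in bEnd.3. Nearly all of this was Lyve1, at 1311 and 41.3 CPM, and Flt4, at 446 and 212 CPM. Pdpn had 5.98 CPM in UV2 and 0 counts in bEnd.3. Prox1, the defining factor of that lineage, had 0 counts in UV2 and 1 in bEnd.3.

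Matched ligands and receptors could be set beside each other in the same libraries. For each CPM of Ackr3 there was 1.39, 1.06 and 0.974 CPM of Cxcl12 in UV2, against 0.502, 0.496 and 0.353 CPM in bEnd.3, and this ratio did not overlap between the lines. Ccr2, the receptor of Ccl2, had 0 counts in every library, and Cx3cr1 had 0 counts in UV2 and 1 in bEnd.3. Each line thus held transcripts of the ligands Ccl2 and Cx3cl1 with at most 1 read of their main signalling receptors.

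Many members lie in clusters of neighbouring genes, and the expressed members were few in each. On chromosome 11, the 6 genes from Ccl2 to Ccl1 span 270.1 kb, and Ccl2 and Ccl7 were the tested genes. The 5 genes from Ccl5 to Ccl4 span 138.9 kb on the same chromosome, and Ccl5 was the tested gene. On chromosome 5, all 3 Cxcr3 ligands within 44.1 kb were tested and higher in UV2, as were 3 of 5 genes within the 146.6 kb from Cxcl5 to Cxcl2, where Cxcl15 had 0 counts. Of these, Cxcl5, Cxcl9 and Cxcl11 entered the test only through their UV2 counts, so that they had to differ. In the receptor cluster on chromosome 9, 4 of 7 genes had any count and none was tested. Median log2 fold changes by chromosome were taken over the tested genes with an average log2 CPM above 3, not over all tested genes. They were -0.10 on chromosome 11 (805 genes), -0.08 on chromosome 5 (650 genes) and 0.14 on chromosome 8 (548 genes). Beside these stood 2.26 for Ccl2, 2.08 for Cxcl1, 2.75 for Cxcl10 and 5.62 for Cx3cl1, which passed the filter in both lines.

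Genes that induce chemokines or destroy their mRNA, 23 in number and all tested, were next. Of these, 14 (60.9%, against 33.9% of all tested genes) were higher in UV2 and 1 was lower, while 8 did not pass, with a median log2 fold change of 0.67. Bcl3, a nuclear partner of NF-kappaB subunits, was the highest, at 21.7 ± 2.32 CPM in UV2 and 3.95 ± 1.13 CPM in bEnd.3 (log2 fold change 2.46, SE 0.20, edgeR adjusted p = 2.47e-05). Ifngr2, a chain of the interferon gamma receptor, was the lower one, at 74.2 ± 2.81 CPM in UV2 and 107 ± 16.6 CPM in bEnd.3 (log2 fold change -0.53, SE 0.11, edgeR adjusted p = 0.00323). The NF-kappaB subunits Nfkb1, Nfkb2, Rela and Relb were higher by 0.60 to 1.14 on the log2 scale, and the fifth subunit, Rel, did not pass, with 5.92 CPM in UV2 and 7.27 CPM in bEnd.3. The list holds inhibitors as well as inducers. Among them Zc3h12a, a nuclease that degrades chemokine mRNA, was higher by 1.61, and Nfkbie, an inhibitor of NF-kappaB, by 1.13. The mRNA decay genes Zfp36 and Zfp36l1 and the inhibitors Nfkbib and Tnfaip3 did not pass, with log2 fold changes of 0.096 to 0.49. Zfp36 varied widely within each line, at 53.2, 25.2 and 106 CPM in UV2 and 34.7, 18.0 and 78.6 CPM in bEnd.3. Replicate 3 was its highest library and replicate 2 its lowest in both lines. Fos, which did not pass either, had the same order, with 8.83, 1.11 and 73.1 CPM in UV2 and 17.2, 2.97 and 122 CPM in bEnd.3.

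Of 13 genes that process chemokines or build the surface that presents them, 12 were tested, with 8 higher in UV2 (66.7%, against 33.9% of all tested genes), 2 lower (16.7%, against 33.3%) and 2 that did not pass, and with a median log2 fold change of 0.55. Mmp9, a secreted protease that trims chemokines, had 530 counts in UV2 and 2 in bEnd.3, a ratio of 288 (95% counting interval 79.3 to 2384; edgeR adjusted p = 2.4e-05). The proteases Mmp2 and Mmp14 were more abundant and also higher in UV2. Mmp2 had 111 ± 7.12 CPM in UV2 and 4.38 ± 0.512 CPM in bEnd.3 (log2 fold change 4.665). Mmp14 had 810 ± 139 CPM in UV2 and 54.6 ± 6.86 CPM in bEnd.3 (log2 fold change 3.89). Sdc1, a heparan sulfate core protein, was the lowest, at 3.99 ± 1.44 CPM in UV2 and 21.6 ± 2.74 CPM in bEnd.3 (log2 fold change -2.43, SE 0.24, edgeR adjusted p = 7.24e-05). Another core protein, Sdc4, was higher by 3.56 on the log2 scale, with 52.6 ± 5.43 CPM in UV2 and 4.47 ± 0.455 CPM in bEnd.3, and Ext1, an enzyme that builds heparan sulfate, was higher by 2.67. Of the enzymes that shed Cx3cl1, Adam17 was higher by 0.65 and Adam10 did not pass, with 513 CPM in UV2 and 498 CPM in bEnd.3. Dpp4, a peptidase that truncates Cxcl12 and Cxcl10, had 0 counts in every library.

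Genes of signalling below the receptors numbered 24, of which 20 were tested, with 10 of these 20 higher in UV2 (against 33.9% of all tested genes), 5 lower (against 33.3%) and 5 that did not pass, and with a median log2 fold change of 0.30. The 15 called of 20 are near the 67.1% called among all tested genes. Plcb2, a phospholipase activated by G protein subunits, was the highest at 1.79 ± 0.772 CPM in UV2 and 0.360 ± 0.0704 CPM in bEnd.3 (log2 fold change 2.28, SE 0.41, edgeR adjusted p = 0.00165). Pik3cg, the lipid kinase downstream of G protein beta-gamma subunits, was the lowest at 8.91 ± 0.549 CPM in UV2 and 26.0 ± 3.29 CPM in bEnd.3 (log2 fold change -1.55, SE 0.12, edgeR adjusted p = 2.17e-05). Among other attractants and their receptors, Cmklr1, the signalling receptor of chemerin, had 1.07 ± 0.349 CPM in UV2 and 133.5 ± 47.0 CPM in bEnd.3 (log2 fold change -6.93, SE 0.38, edgeR adjusted p = 3.42e-06), whereas Ccrl2, which binds the same ligand, overlapped between the lines. The chemerin gene Rarres2 had 0 counts in every library. Of the platelet ligands, Pf4 did not pass, with 2.08 CPM in UV2 and 1.63 CPM in bEnd.3, and Ppbp had 5 counts in UV2 and 0 in bEnd.3.

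**Figure D4:**
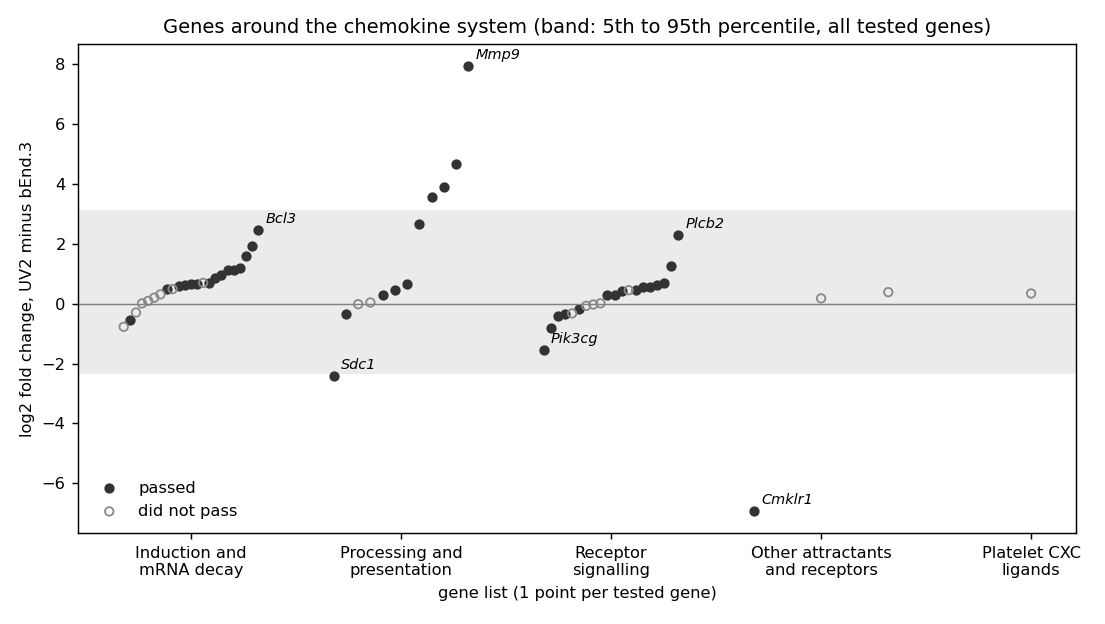
Log2 fold change of UV2 over bEnd.3 for each tested gene of 5 lists around the chemokine system, filled where the gene passed the test and open where it did not, with a band from the 5th to the 95th percentile of all tested genes (-2.31 to 3.09). Most induction genes lie inside the band above 0, and Mmp9 and Cmklr1 lie far outside it. Mmp2, Mmp14 and Sdc4 also lie above the band, and Sdc1 lies just below it.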

How the data were processed

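The authors deposited expected counts per gene symbol, not normalized, for 24411 genes in 6 libraries made with a stranded mRNA kit, per the labels' protocols. Trim Galore, STAR, RSEM and mm10 are named in the submitters' processing notes. Their versions, the annotation and whether counting used strand were not given in the sources used here, so overlapping and antisense genes are uncertain. Expected counts share reads among similar genes, and 5 members had counts that were not whole.

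Counts were rounded, filtered with filterByExpr (12720 genes kept), scaled by TMM and fitted with line as the only term in edgeR 4.0.16 (quasi-likelihood test, R 4.3.3). The Benjamini-Hochberg adjustment covered every tested gene, and a gene was called where its adjusted p was below 0.05. Levels are CPM of the filtered, TMM-scaled totals. For a gene at 0 in a line, folds are bounds against 3 counts summed over its 3 libraries; for 1 to 3 counts a ratio is given with its exact 95% interval, both for counting error only. On simulated data the fit recovered 96.2% of genes changed 2-fold and 100% of those changed 4-fold. Unchanged genes made up 4.85% of its calls. Only 200 genes at 1 CPM or more were changed there, and all genes shared 1 coefficient of variation, 0.124. In the data 67.1% of tested genes were called, so these rates need not hold for them, or for low or more variable members.

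Same-numbered libraries, by the numbers in the titles, had deviations correlated at 0.116, 0.21 and 0.257. Those with unlike numbers had -0.275 to 0.0783. The labels state no pairing, so the main fit, with its SEs and p-values, leaves any pairing out. A block on the replicate number was an alternative. Others were DESeq2 (1.42.0) and its size factors, limma-voom (3.58.1), total counts, other filters, removal of chromosome medians and leaving out each library. The rule named members averaging 1 CPM or more in either line, and the highest and lowest called gene of each list; other genes were chosen after their values were seen. Members and lists were chosen with earlier results of these data known. Positions and exon lengths, merged over all transcripts of a gene, are from GENCODE M21 (GRCm38), promoters from RefSeq (GRCm38.p6). A member and a marker gene are not reported here.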

Additional observations from a re-analysis of the deposited data

How the results depend on the processing

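Of 248 checks of the 18 tested members under 14 alternatives, 244 kept the call and direction. Members higher in UV2 numbered 13, and 13 to 15 when a library was left out; members lower numbered 2, and 2 to 3. With no filter 19 members were higher and 4 were lower. Ccl21a and Xcr1 were added to the lower ones. Those added to the higher ones included the receptors Cxcr2 and Ackr1 and the ligands Ccl4, Ccl9 and Cxcl3. With at least 1 CPM in 3 libraries 11 were higher and 1 was lower, since Cxcr4 was no longer tested. With the replicate number as a block, 13 members were higher and 2 lower. Over all genes 4380 were higher and 4302 lower, against 4306 and 4232 without the block. The block changed no member's call but moved the SEs in both directions. That of Ccl7 went from 0.55 to 0.20 with the block, and that of Cxcl2 from 0.40 to 0.43. The log2 fold change of Ccrl2, which was not called, was -0.011 with total counts and -0.063 to 0.17 when a library was left out, with a sign below 0 without UV2 replicate 3 or bEnd.3 replicate 1; the cause was not tested. Total counts moved the median of all genes by -0.0652. Depth limits the 25 members seen but not tested and the folds of Cxcl5, Cxcl9, Cxcl11 and Cxcr4, which rest on 0 to 3 counts in a line.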

Other observations

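For each 100 CPM of Ccl2 there was 1.37, 0.891 and 0.536 CPM of its neighbour Ccl7 in UV2, against 0.979, 0.905 and 0.799 CPM in bEnd.3. The ratio of these neighbours overlapped between the lines although both levels were higher in each UV2 library.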
